A study of Mus musculus with 9 samples.

Results

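The genes described here make up a list of 28 genes for cholesterol synthesis, sterol transport and the control of both by the SREBP transcription factors. The members were taken by symbol from a fixed list of names, and all 28 were found among the 56289 gene identifiers of the deposited table. The list was chosen with earlier results of these data known, so counts of called members are not independent of the data. The study asked which genes differ when cells are given an inflammatory factor and when Wang Bi granules (WBG), a Chinese herbal preparation for rheumatoid arthritis, are given with it. Poly-A RNA of 9 mouse libraries was sequenced as read pairs, 3 libraries in each of 3 groups. The TNF plus WBG group received WBG together with tumour necrosis factor alpha, an inflammatory cytokine, for 24 h. The TNF group received tumour necrosis factor alpha alone for 24 h, and the untreated group is labelled with no agent and no time. All libraries carry the label RAW264.7, a macrophage-like line of BALB/c origin grown with fetal bovine serum. The labels give no dose of either agent, and no group with WBG alone was analysed here. Whether the replicates came from separate cultures is not stated, so p-values reflect only how much these samples varied, which may be technical. Time in culture and TNF cannot be told apart in the comparisons with untreated libraries.

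Cholesterol is built in the endoplasmic reticulum from acetyl-CoA, by way of mevalonate, the isoprenoid diphosphates, squalene and lanosterol. When membranes are short of sterol, Scap carries the SREBP precursors to the Golgi for cleavage, and the released factors switch on the genes of synthesis and uptake. When sterol is plentiful, Insig proteins hold Scap and the SREBP precursors back. Cholesterol that enters by lipoprotein uptake leaves the lysosome through Npc2 and Npc1, and fibroblasts and macrophages both use these routes.

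The values are FPKM, the fragments of a gene divided by its length in kilobases and by the M (mega) fragments of the library, so that levels of different genes can be compared. The FPKM of a library summed to 427781 to 436809, and 12611 to 12737 genes reached 1 FPKM. The file holds no counts, and its smallest steps correspond to 18.85 to 26.03 M fragments per library if 1 step is 1 fragment. The libraries go against their macrophage label. Of 15 macrophage identity genes, 3 (Cd68, Mertk and Cd14) averaged 1 FPKM or more, and Ptprc, Itgam, Adgre1 and Tyrobp were listed at 0 in all 9 libraries. Of 14 fibroblast genes, 11 reached a mean of 1 FPKM. Among the rest, Lum was listed at 0 in all 9 libraries, Thy1 averaged 0.012 FPKM and Loxl1 0.825 FPKM. The summed level of the 14 genes ran from 5083.2 to 5150.2 FPKM in TNF plus WBG, 5191.8 to 5449.8 FPKM in TNF and 4823.7 to 5088.7 FPKM in untreated libraries. No gene of the lymphocyte list (6 genes) or of the epithelial and endothelial list (7 genes) had a mean of 1 FPKM. The cells are therefore called here by their group and not by a cell type.

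All 28 members passed the filter of at least 1 FPKM in at least 3 of the 9 libraries, which 13026 genes passed. Their mean level over the 9 libraries ran from 7.85 FPKM for Ggps1 to 174.0 FPKM for Fdps. The median of the members was 28.4 FPKM, against 10.3 FPKM for all genes tested, and 26 of the 28 lay above that all-gene median. After Fdps the highest were Insig1 at 124 FPKM, Srebf2 at 89.6 FPKM, Npc2 at 83.4 FPKM and Hmgcs1 at 78.5 FPKM. Tm7sf2, with 8.93 FPKM, and Ggps1 were the lowest. The summed FPKM of all members was 1372, 1382 and 1290.0 in the TNF plus WBG libraries, 1323, 1234 and 1271 in the TNF libraries and 1116, 1092 and 1108 in the untreated libraries. Every treated library thus held more of this RNA than any untreated library, while the treated groups overlapped.

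**Figure D1:**
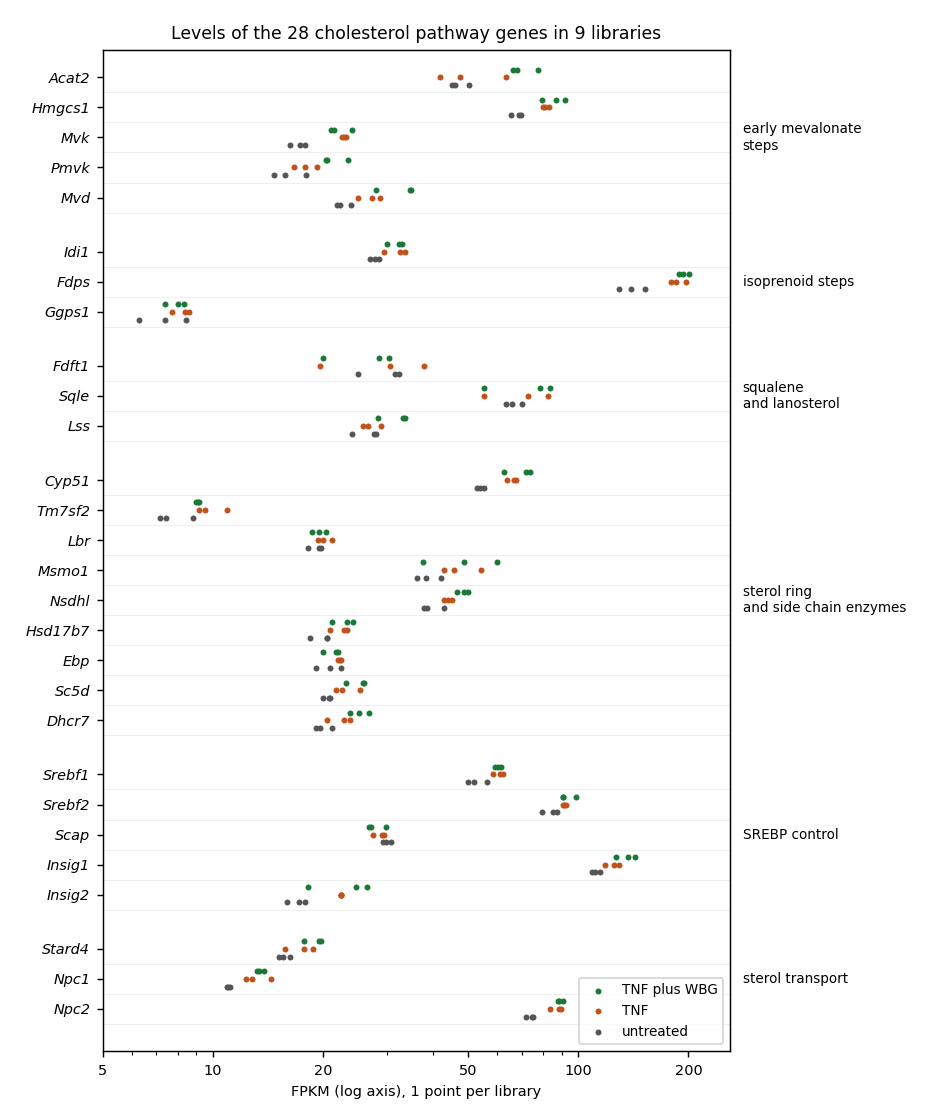
Each point is the FPKM of 1 library on a log axis, with the 28 members in rows grouped by role and the groups TNF plus WBG, TNF and untreated drawn from top to bottom within a row. For Fdps, Mvk, Hmgcs1, Cyp51 and Npc2 all 6 treated points lie right of the untreated ones, while Fdft1 and Sqle scatter within groups.

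Members were higher in TNF than in untreated libraries for 7 of the 28 and lower for none. Differences were tested with limma on log2(FPKM + 1), so that a log2 fold change of a low gene is somewhat smaller than its ratio of means, and a call means an adjusted p under 0.05 (Benjamini-Hochberg, over all 13026 genes). Of all genes tested, 6.43% were called higher in this comparison and 4.21% lower. The called members were Hmgcs1, Mvk, Fdps, Cyp51, Srebf1, Npc1 and Npc2. The groups did not overlap, with TNF above untreated, for 16 members, against 15.5% of all genes. The sign was positive for 26 of 28 members, and their median log2 fold change was 0.16, against 0.00 for all genes tested. The count of 7 dropped to 3 without TNF replicate 3 and to 4 without untreated replicate 3. In bulk RNA, a change in the mix of cells and a change in RNA per cell cannot be told apart.

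With TNF plus WBG set against untreated libraries, 15 members were called higher and none lower. The background was 5.52% of genes called higher and 3.67% called lower. The 15 were the 7 named above together with Acat2, Pmvk, Mvd, Nsdhl, Sc5d, Dhcr7, Insig1 and Stard4. For 21 members every TNF plus WBG library lay above every untreated library, against 14.5% of all genes, and the median log2 fold change of the members was 0.27, against -0.00 for all genes tested. The count fell to 9 without TNF plus WBG replicate 1, 7 without TNF plus WBG replicate 2, 8 without untreated replicate 1 and 7 without untreated replicate 3. Both comparisons use the same untreated libraries, so the shared calls are not independent of each other. The larger count does not show a difference between the treated groups, which was tested directly as TNF plus WBG against TNF.

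TNF plus WBG against TNF gave no call for any of the 28 members by limma in either direction. Among all genes 0.0691% were called higher and 0.0307% lower. At an unadjusted p under 0.05, 7 members were higher and none lower, against 4.18% of all genes higher and 4.88% lower. For 4 members (Acat2, Pmvk, Nsdhl and Dhcr7) every TNF plus WBG library lay above every TNF library, against 7.03% of all genes. The median log2 fold change of the members was 0.03, against -0.00 for all genes. The lowest adjusted p was 0.414, for Acat2.

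**Figure D2:**
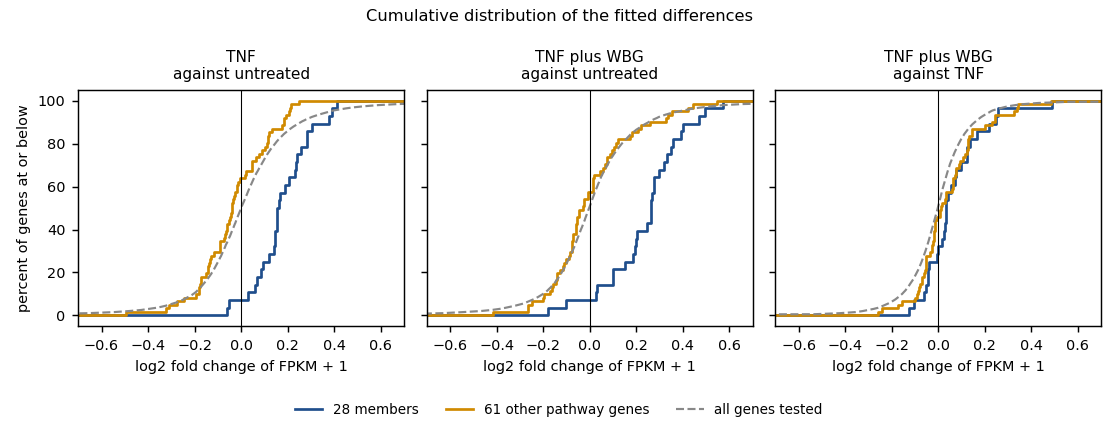
Lines give the percent of genes at or below each fitted log2 fold change of FPKM + 1, for the 28 members, 61 other genes of the pathway and all 13026 genes tested, with 1 panel per comparison. In both comparisons with untreated libraries the line of the members lies right of the other lines over most of its length (medians 0.16 and 0.27). It ends at 0.414 with TNF and 0.574 with TNF plus WBG, below the largest changes of all genes. In TNF plus WBG against TNF the median of the members was 0.03, against -0.00 for all genes, and 67.9% of members were positive, against 48.9%.

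The stretches upstream of 4 members are shown, because each was called in both comparisons with untreated libraries and RefSeq (GRCm38.p6) gave 1 start for it. Each line holds the 250 bases before the annotated start, 5′ to 3′ on the strand of the gene, with capitals at every match to the sterol regulatory element core TCACNCCAC, the NF-Y box CCAAT or the Sp1 box GGGCGG on either strand.
Hmgcs1, chr13:119690101-119690350, plus strand: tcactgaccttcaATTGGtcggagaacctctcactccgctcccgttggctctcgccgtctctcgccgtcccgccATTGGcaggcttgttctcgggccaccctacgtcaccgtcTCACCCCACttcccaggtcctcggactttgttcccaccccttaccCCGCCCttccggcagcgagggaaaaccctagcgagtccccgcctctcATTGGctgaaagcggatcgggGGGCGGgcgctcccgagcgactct
Mvk, chr5:114444019-114444268, plus strand: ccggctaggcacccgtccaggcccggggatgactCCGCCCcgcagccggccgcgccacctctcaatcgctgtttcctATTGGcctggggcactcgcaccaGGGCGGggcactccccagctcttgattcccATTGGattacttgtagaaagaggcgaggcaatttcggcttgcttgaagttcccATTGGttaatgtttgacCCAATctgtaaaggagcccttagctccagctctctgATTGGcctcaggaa
Cyp51, chr5:4104698-4104947, minus strand: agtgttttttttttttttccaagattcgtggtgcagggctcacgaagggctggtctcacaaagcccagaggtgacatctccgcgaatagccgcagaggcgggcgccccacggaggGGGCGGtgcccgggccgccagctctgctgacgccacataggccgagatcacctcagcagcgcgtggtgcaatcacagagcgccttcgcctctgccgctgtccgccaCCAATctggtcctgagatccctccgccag
Npc2, chr12:84773113-84773362, minus strand: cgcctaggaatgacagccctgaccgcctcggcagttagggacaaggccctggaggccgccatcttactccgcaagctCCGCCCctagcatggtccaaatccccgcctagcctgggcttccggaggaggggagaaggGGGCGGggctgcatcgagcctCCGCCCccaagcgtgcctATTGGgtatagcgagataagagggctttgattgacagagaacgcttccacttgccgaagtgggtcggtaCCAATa
The 3 motifs do not overlap one another in these letters. Counted in windows from 250 bases before to 50 after the start, 23 of the 28 members had at least 1 window in the table. Fdft1, Fdps, Npc1, Sqle and Stard4 had none. Only exact matches to the letters given were counted. The sterol regulatory element core matched in 1 of those 23 members, Hmgcs1, where it begins 137 bases before the start, against 1.43% of the 9250 tested genes with a window. CCAAT matched in 21 of the 23 members (91.3%), against 43.5% of tested genes with a window, and GGGCGG in 21 (91.3%), against 70.5%. Per window these motifs were found in 1.24%, 37.4% and 35.7% of all 32851 windows of the table, in the order of the sterol element, CCAAT and GGGCGG. A match describes these letters only, and no binding was measured.

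Of the early mevalonate steps, 5 of 5 members were called higher in TNF plus WBG than in untreated libraries, against 5.52% of all genes. In TNF against untreated, 2 of 5 (Hmgcs1 and Mvk) were called higher, against 6.43% of all genes. The summed level of the 5 members was 232.8 ± 14.9 FPKM in TNF plus WBG, 199.9 ± 11.9 FPKM in TNF and 171.1 ± 3.52 FPKM in untreated libraries (SD, n = 3 each). Hmgcs1 (ENSMUSG00000093930) makes HMG-CoA, the precursor of mevalonate. Among the 23 members with a promoter window it was the only 1 with an exact match to TCACNCCAC. Other forms of the sterol element were not searched. Hmgcs1 measured 86.6, 91.9 and 79.7 FPKM in the TNF plus WBG libraries, 81.3, 79.8 and 83.3 FPKM in the TNF libraries and 69.8, 65.5 and 68.6 FPKM in the untreated libraries. All 6 treated libraries lay above the untreated ones, and the treated groups overlapped. The mean was 1.198-fold higher in TNF than in untreated libraries (log2 0.26 ± 0.053, adjusted p = 0.0157) and 1.27-fold higher in TNF plus WBG (log2 0.33 ± 0.053, adjusted p = 0.00451). Hmgcs1 lost its call in TNF against untreated without TNF replicate 3 (adjusted p = 0.0596) and without untreated replicate 2 (adjusted p = 0.0548). An antisense transcript, Gm48342, shares 557 bases with its exons and averaged 1.0 FPKM in TNF plus WBG, 0.89 FPKM in TNF and 0.65 FPKM in untreated libraries.

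Mvk (ENSMUSG00000041939), mevalonate kinase, adds the first phosphate to mevalonate. Levels of Mvk were 20.98, 21.4 and 24.04 FPKM in the TNF plus WBG libraries, 22.5, 23.1 and 22.8 FPKM in the TNF libraries and 17.3, 16.2 and 17.9 FPKM in the untreated libraries. Again no treated value reached down to the untreated range. Mvk was 1.33-fold higher in TNF than in untreated libraries (log2 0.39 ± 0.059, adjusted p = 0.00313) and 1.29-fold higher in TNF plus WBG (log2 0.35 ± 0.059, adjusted p = 0.00658). Both calls held under all 18 alternatives. Mvd (ENSMUSG00000006517) removes the carboxyl group to give isopentenyl diphosphate. For Mvd, the values were 34.6, 34.8 and 27.97 FPKM with TNF plus WBG, 27.2, 24.9 and 28.7 FPKM with TNF and 21.8, 22.2 and 23.9 FPKM in untreated libraries. Both treated groups lay wholly above the untreated group, but the TNF difference of 1.19-fold was not called (adjusted p = 0.14). With TNF plus WBG the level was 1.43-fold that of untreated libraries (log2 0.49 ± 0.089, adjusted p = 0.00873), a call kept under all 18 alternatives.

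Pmvk (ENSMUSG00000027952), phosphomevalonate kinase, acts between Mvk and Mvd. Pmvk measured 20.4, 23.5 and 20.5 FPKM in the TNF plus WBG libraries, 16.6, 17.9 and 19.2 FPKM in the TNF libraries and 14.7, 17.9 and 15.8 FPKM in the untreated libraries. The TNF plus WBG libraries exceeded all others, while TNF and untreated values overlapped. The difference from untreated libraries was 1.33-fold with TNF plus WBG (log2 0.39 ± 0.087, adjusted p = 0.0233) and 1.11-fold with TNF (adjusted p = 0.366). The Pmvk call was lost without TNF plus WBG replicate 2 (adjusted p = 0.0811), without untreated replicate 1 (0.0785), without untreated replicate 3 (0.0796) and with no filter (0.0635).

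Acat2 (ENSMUSG00000023832), the cytosolic acetyl-CoA acetyltransferase that starts the pathway, had the largest fitted difference of any member in both comparisons that involve TNF plus WBG. Levels of Acat2 were 66.4, 77.7 and 68.1 FPKM in the TNF plus WBG libraries, 63.4, 41.8 and 47.4 FPKM in the TNF libraries and 50.2, 45.2 and 46.02 FPKM in the untreated libraries. The TNF plus WBG values stood above all 6 others, with TNF replicate 1 the nearest to them. The mean was 1.501-fold that of untreated libraries (log2 0.57 ± 0.134, adjusted p = 0.0296). Against TNF it was 1.39-fold higher and not called (log2 0.49, 95% interval 0.18 to 0.79, adjusted p = 0.414), and TNF against untreated gave 1.08-fold (adjusted p = 0.754). The call of Acat2 against untreated was lost without any 1 of the 6 libraries compared, with adjusted p from 0.0591 to 0.106, and with no filter (adjusted p = 0.089).

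The isoprenoid steps were led by Fdps, farnesyl diphosphate synthase, which joins isoprene units into the branch point between sterols and prenylated proteins. Fdps (ENSMUSG00000059743) was the most abundant member and had the largest fitted difference in TNF against untreated. For Fdps, the values were 200.5, 189 and 194 FPKM with TNF plus WBG, 197, 179.6 and 185 FPKM with TNF and 153, 129 and 139 FPKM in untreated libraries. The lowest treated library exceeded the highest untreated one. The level was 1.33-fold that of untreated libraries with TNF (log2 0.41 ± 0.061, adjusted p = 0.00258) and 1.38-fold with TNF plus WBG (log2 0.47 ± 0.061, adjusted p = 0.00148), and both calls held under all 18 alternatives. Its exons share 1124 bases with Gm43738 on the same strand, which averaged 0.24 FPKM in TNF plus WBG, 0.15 FPKM in TNF and 0.1 FPKM in untreated libraries. Idi1, the isomerase that feeds Fdps, was not called in any comparison. Its means were 31.7 ± 1.61 FPKM in TNF plus WBG, 31.7 ± 2.12 FPKM in TNF and 27.7 ± 0.763 FPKM in untreated libraries, with no overlap between treated and untreated values (adjusted p = 0.088 and 0.0811 against untreated). Ggps1, which extends the chain for protein geranylgeranylation, overlapped across all groups, with means of 7.93 ± 0.477, 8.25 ± 0.457 and 7.36 ± 1.07 FPKM in TNF plus WBG, TNF and untreated libraries.

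The squalene and lanosterol steps gave no call in any comparison. The 3 enzymes are Fdft1 (squalene synthase), Sqle (squalene epoxidase) and Lss (lanosterol synthase), and their sum was 130.2 ± 23.3 FPKM in TNF plus WBG, 126.5 ± 19.8 FPKM in TNF and 122.5 ± 3.54 FPKM in untreated libraries. Fdft1 and Sqle had the widest spread of all members within groups, with residual SDs of 0.342 and 0.252 on the log2 scale, against a median of 0.082 for the members and 0.103 for all genes tested. Their values in each library were singled out after they were seen. Fdft1 measured 28.5, 30.3 and 20 FPKM in the TNF plus WBG libraries, 37.9, 19.7 and 30.4 FPKM in the TNF libraries and 24.9, 31.4 and 32.4 FPKM in the untreated libraries. Each treated group holds 1 library near 20 FPKM, and all 3 groups overlap. Levels of Sqle were 78.3, 83.4 and 55.3 FPKM in the TNF plus WBG libraries, 82.5, 72.95 and 55.01 FPKM in the TNF libraries and 69.9, 63.4 and 65.9 FPKM in the untreated libraries. One library of each treated group lay near 55 FPKM, below all untreated values, and the other 2 lay above them. The 95% intervals of the fold against untreated were wide for Fdft1, 0.612 to 1.277 with TNF plus WBG and 0.668 to 1.395 with TNF. For Sqle they were 0.817 to 1.408 with TNF plus WBG and 0.794 to 1.369 with TNF. Fdft1 shares 774 bases, 18.3% of its exons, with Ctsb on the opposite strand, and Ctsb averaged 121.91 FPKM in TNF plus WBG, 125.65 FPKM in TNF and 111.55 FPKM in untreated libraries, so its reads may be split uncertainly. Lss averaged 31.7 ± 2.87 FPKM in TNF plus WBG, 27.04 ± 1.57 FPKM in TNF and 26.5 ± 2.18 FPKM in untreated libraries, and the TNF plus WBG difference from untreated had an adjusted p of 0.108.

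Among the 9 sterol ring and side chain enzymes, 4 (Cyp51, Nsdhl, Sc5d and Dhcr7) were called higher in TNF plus WBG than in untreated libraries and 1 (Cyp51) in TNF. The shares of all genes called higher were 5.52% and 6.43%. Cyp51 (ENSMUSG00000001467) takes a methyl group from lanosterol and opens the conversion to cholesterol. Cyp51 measured 72.1, 73.7 and 62.8 FPKM in the TNF plus WBG libraries, 66.7, 63.6 and 67.3 FPKM in the TNF libraries and 55.2, 52.9 and 53.7 FPKM in the untreated libraries. All treated values exceeded the untreated ones. The fold over untreated libraries was 1.22 with TNF (log2 0.28 ± 0.060, adjusted p = 0.0172) and 1.29 with TNF plus WBG (log2 0.36 ± 0.060, adjusted p = 0.00586). The TNF call of Cyp51 was lost without TNF replicate 1 (adjusted p = 0.0551), TNF replicate 3 (0.0621), untreated replicate 2 or untreated replicate 3 (0.0564 each), while the TNF plus WBG call held under all 18 alternatives. Akap9, on the opposite strand, shares 166 bases with Cyp51 exons and averaged 10.13, 9.6 and 9.57 FPKM in TNF plus WBG, TNF and untreated libraries.

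Nsdhl (ENSMUSG00000031349) works with Msmo1 and Hsd17b7 to remove further methyl groups. For Nsdhl, the values were 48.6, 50 and 46.4 FPKM with TNF plus WBG, 43.9, 42.9 and 45.1 FPKM with TNF and 42.9, 37.8 and 38.5 FPKM in untreated libraries. The TNF plus WBG values lay above all others, and TNF overlapped untreated at 1 library each. Nsdhl was 1.22-fold higher in TNF plus WBG than in untreated libraries (log2 0.28 ± 0.054, adjusted p = 0.0127), against 1.11-fold with TNF (adjusted p = 0.143). Its call was lost without TNF plus WBG replicate 2 (adjusted p = 0.0524) and without untreated replicate 3 (0.0523). Msmo1 averaged 48.7 ± 11.2 FPKM in TNF plus WBG, 47.6 ± 5.89 FPKM in TNF and 38.9 ± 3.05 FPKM in untreated libraries without a call, and its residual SD of 0.224 was the third widest of the members. Hsd17b7 averaged 22.9 ± 1.47, 22.3 ± 1.23 and 19.8 ± 1.15 FPKM in the same groups, with all treated values above the untreated ones and adjusted p of 0.111 and 0.168 for TNF plus WBG and TNF against untreated.

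Dhcr7 (ENSMUSG00000058454) is the reductase of the last step to cholesterol. Levels of Dhcr7 were 26.7, 25.1 and 23.8 FPKM in the TNF plus WBG libraries, 22.8, 20.5 and 23.7 FPKM in the TNF libraries and 19.2, 21.2 and 19.6 FPKM in the untreated libraries. The lowest TNF plus WBG value, 23.76 FPKM, lay barely above the highest TNF value, 23.74 FPKM. Dhcr7 in TNF plus WBG was clear of the untreated group. Its level was 1.26-fold that of untreated libraries with TNF plus WBG (log2 0.32 ± 0.068, adjusted p = 0.0191) and 1.12-fold with TNF (adjusted p = 0.212). Among the omissions of 1 library, Dhcr7 lost this call without TNF plus WBG replicate 1 (adjusted p = 0.0715), TNF plus WBG replicate 2 (0.0618), untreated replicate 1 (0.0704) or untreated replicate 3 (0.0701). Sc5d (ENSMUSG00000032018), the desaturase that acts just before it, was called in the same comparison. Sc5d measured 25.8, 25.8 and 23.2 FPKM in the TNF plus WBG libraries, 25.3, 21.8 and 22.6 FPKM in the TNF libraries and 20.8, 20.04 and 20.96 FPKM in the untreated libraries. No treated value fell into the untreated range. The fold was 1.21 with TNF plus WBG (log2 0.26 ± 0.065, adjusted p = 0.0394) and 1.13 with TNF (adjusted p = 0.17). Omitting TNF replicate 3 ended the Sc5d call (adjusted p = 0.0591), as did omitting TNF plus WBG replicate 1 (0.123) or 2 (0.129) or untreated replicate 1 (0.0913), 2 (0.111) or 3 (0.0908), no filter (0.0852) and a fit without trend (0.0538).

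Of the remaining ring enzymes, the reductases Tm7sf2 and Lbr, which can each reduce the same ring bond, and the isomerase Ebp were not called. Tm7sf2 averaged 9.09 ± 0.103 FPKM in TNF plus WBG, 9.88 ± 0.944 FPKM in TNF and 7.81 ± 0.89 FPKM in untreated libraries, and its adjusted p was 0.0562 in TNF against untreated, where the groups did not overlap. Exons of Vps51 cover 532 bases of Tm7sf2 on the same strand, and Vps51 averaged 19.68, 20.08 and 19.08 FPKM in TNF plus WBG, TNF and untreated libraries. Lbr, also a protein of the inner nuclear membrane, averaged 19.5 ± 0.874, 20.2 ± 0.918 and 19.2 ± 0.805 FPKM in the same order of groups. The ratio of Lbr to Tm7sf2 was 2.15 ± 0.0915 in TNF plus WBG, 2.05 ± 0.123 in TNF and 2.47 ± 0.23 in untreated libraries, without a test. For Ebp the means were 21.3 ± 1.05, 22.2 ± 0.253 and 20.8 ± 1.65 FPKM in TNF plus WBG, TNF and untreated libraries, and all groups overlapped.

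Among the 5 control genes, Srebf1 was called higher in both treated groups and Insig1 in TNF plus WBG, each against untreated. Of all genes, 6.43% were called higher in TNF and 5.52% in TNF plus WBG. Srebf1 (ENSMUSG00000020538) encodes the SREBP factors best known for fatty acid synthesis. For Srebf1, the values were 59.3, 61.5 and 60.2 FPKM with TNF plus WBG, 62.1, 58.5 and 61.1 FPKM with TNF and 51.7, 56.1 and 49.7 FPKM in untreated libraries. Every treated library lay above the untreated range of 49.7 to 56.1 FPKM. Its difference from untreated was 1.153-fold with TNF (log2 0.20 ± 0.048, adjusted p = 0.0298) and 1.15-fold with TNF plus WBG (log2 0.20 ± 0.048, adjusted p = 0.0355). The Srebf1 call in TNF was lost without TNF replicate 1 (adjusted p = 0.0921), TNF replicate 3 (0.0912), untreated replicate 1 (0.0909) or untreated replicate 3 (0.0953). With TNF plus WBG it was lost without any of the 3 TNF plus WBG libraries (0.0742 to 0.116), TNF replicate 3 (0.0567) or untreated replicate 1 (0.103) or 3 (0.114). Of the other alternatives without a replicate block, those that ended both Srebf1 calls were no filter (0.0605 for TNF and 0.0703 for TNF plus WBG), a fit of only the 6 libraries compared (0.0676 and 0.0747) and a fit without trend (0.0561 and 0.0649). Rai1, on the opposite strand, shares 109 bases with Srebf1 exons and averaged 19.99, 21.69 and 22.23 FPKM in TNF plus WBG, TNF and untreated libraries.

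Srebf2 (ENSMUSG00000022463), whose product is the main factor for cholesterol genes, was more abundant than Srebf1, with a ratio of 1.55 ± 0.101 in TNF plus WBG, 1.51 ± 0.0513 in TNF and 1.6 ± 0.0991 in untreated libraries. Levels of Srebf2 were 98.7, 90.96 and 90.5 FPKM in the TNF plus WBG libraries, 90.5, 91.3 and 92.4 FPKM in the TNF libraries and 79.6, 87.2 and 85.4 FPKM in the untreated libraries. The treated libraries lay above the untreated ones by a narrow margin. The differences from untreated libraries were 1.09-fold with TNF (adjusted p = 0.157) and 1.11-fold with TNF plus WBG (adjusted p = 0.088), neither of them called. Scap (ENSMUSG00000032485), the escort of the SREBP precursors, was with Fdft1 the only member with a negative sign in both comparisons with untreated. Scap measured 27.01, 26.8 and 29.8 FPKM in the TNF plus WBG libraries, 28.99, 27.4 and 29.5 FPKM in the TNF libraries and 29.3, 29.8 and 30.7 FPKM in the untreated libraries. All 3 groups overlapped, with adjusted p of 0.527 for TNF and 0.299 for TNF plus WBG against untreated.

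Insig1 (ENSMUSG00000045294), itself a known SREBP target whose product retains Scap, stood at 137, 143 and 127 FPKM in the TNF plus WBG libraries. The TNF libraries held 129, 118 and 125 FPKM of Insig1 and the untreated libraries 111, 109 and 115 FPKM. All treated values exceeded the untreated ones, and the treated groups overlapped at 1 library each. The fold over untreated libraries was 1.21 with TNF plus WBG (log2 0.28 ± 0.051, adjusted p = 0.0101), a call kept under all 18 alternatives, and 1.12 with TNF (adjusted p = 0.1). Insig2 (ENSMUSG00000003721), the less abundant relative with the same retaining role, was called in neither. For Insig2, the values were 24.6, 26.3 and 18.2 FPKM with TNF plus WBG, 22.4, 22.4 and 22.4 FPKM with TNF and 15.99, 17.9 and 17.2 FPKM in untreated libraries. The 3 TNF values were nearly identical and, like the TNF plus WBG values, above the untreated ones, while TNF plus WBG replicate 3 lay close to the untreated range. The fold was 1.32 with TNF (adjusted p = 0.0771) and 1.36 with TNF plus WBG (adjusted p = 0.0671). Insig1 exceeded Insig2 by a ratio of 5.97 ± 0.851 in TNF plus WBG, 5.55 ± 0.246 in TNF and 6.56 ± 0.422 in untreated libraries.

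The sterol transport genes were all called higher in TNF plus WBG than in untreated libraries, and Npc1 and Npc2 also in TNF. The shares of all genes called higher were 5.52% with TNF plus WBG and 6.43% with TNF. Npc2 (ENSMUSG00000021242) binds cholesterol inside the lysosome and had the smallest residual SD of the members, 0.039. Levels of Npc2 were 87.8, 88.5 and 90.95 FPKM in the TNF plus WBG libraries, 83.6, 89.3 and 88.6 FPKM in the TNF libraries and 75.2, 74.7 and 72.1 FPKM in the untreated libraries. The untreated values lay well below all 6 treated values. The fold over untreated was 1.18 with TNF (log2 0.23 ± 0.038, adjusted p = 0.00444) and 1.204 with TNF plus WBG (log2 0.26 ± 0.038, adjusted p = 0.0025), and both calls held under all 18 alternatives. Npc1 (ENSMUSG00000024413), the lysosomal membrane protein that passes the sterol on, was lower in level. For Npc1, the values were 13.4, 13.8 and 13.2 FPKM with TNF plus WBG, 12.3, 12.8 and 14.4 FPKM with TNF and 10.9, 11.1 and 10.98 FPKM in untreated libraries. Groups did not overlap between treated and untreated libraries, and the untreated values lay close together. Npc1 was 1.195-fold higher with TNF (log2 0.23 ± 0.060, adjusted p = 0.0393) and 1.22-fold higher with TNF plus WBG (log2 0.27 ± 0.060, adjusted p = 0.0234), each against untreated.

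The Npc1 call in TNF against untreated was kept in 1 of the 9 omissions, that of TNF replicate 1, and otherwise had an adjusted p of 0.0549 to 0.105. Of the other alternatives without a replicate block, no filter (0.0698) and a fit of only the 6 libraries compared (0.0844) also ended it. In TNF plus WBG against untreated, the Npc1 call was lost without TNF plus WBG replicate 1 (0.0686) or 2 (0.0837) and without untreated replicate 1 (0.0732), 2 (0.0572) or 3 (0.0738). Rmc1, on the opposite strand of Npc1, shares 511 exon bases with it and averaged 10.85, 11.3 and 10.69 FPKM in TNF plus WBG, TNF and untreated libraries. Stard4 (ENSMUSG00000024378), a soluble carrier that moves sterol between membranes, was called at the edge of the threshold. Stard4 measured 19.8, 19.5 and 17.8 FPKM in the TNF plus WBG libraries, 17.8, 15.7 and 18.8 FPKM in the TNF libraries and 15.2, 16.3 and 15.5 FPKM in the untreated libraries. TNF plus WBG lay above untreated without overlap, whereas TNF overlapped untreated. The fold was 1.22 with TNF plus WBG (log2 0.27 ± 0.070, adjusted p = 0.0497) and 1.11 with TNF (adjusted p = 0.258). The Stard4 call was lost without TNF plus WBG replicate 1 (0.148) or 2 (0.147), TNF replicate 1 (0.0713) or any untreated library (0.0752 to 0.138). It was also lost, among the alternatives without a replicate block, with no filter (0.105), with a pseudocount of 0.1 (0.0501), after quantile normalization (0.0577) and without trend (0.0615).

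**Figure D3:**
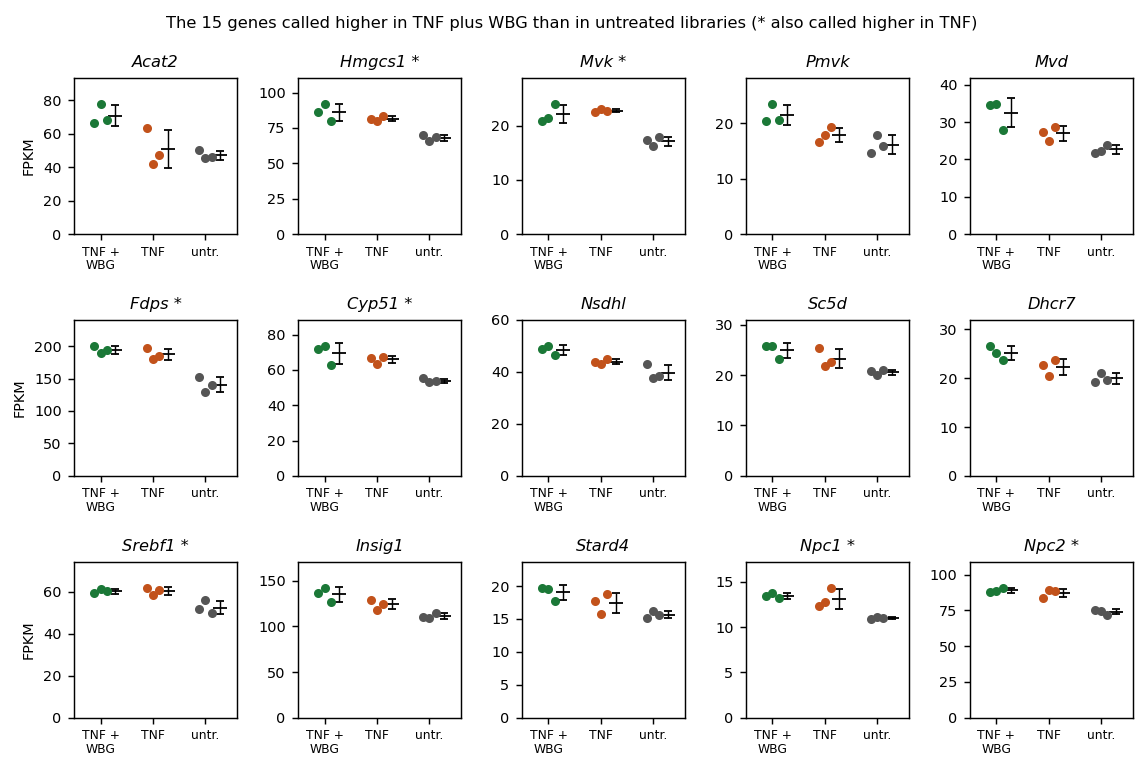
FPKM of the 15 members called higher in TNF plus WBG than in untreated libraries, with 1 point per library, the group mean as a horizontal bar and 1 SD as the error bar (n = 3). Untreated points lie below all TNF plus WBG points in every panel, and an asterisk marks the 7 members also called higher in TNF.

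Between TNF plus WBG and TNF, 7 members had a 95% interval of the fold wholly above 1 and none wholly below. An interval that excludes 1 is the same criterion as an unadjusted p under 0.05 by limma, so these are the 7 members counted above. By that criterion 4.18% of all genes were higher and 4.88% lower. None of the 7 members was called after adjustment over all genes. They were Acat2 and 6 others with smaller differences. In TNF plus WBG over TNF, Pmvk was 1.198-fold (95% interval 1.04 to 1.36, adjusted p = 0.488), Mvd 1.204-fold (95% interval 1.04 to 1.37, adjusted p = 0.488) and Lss 1.17-fold (95% interval 1.022 to 1.32, adjusted p = 0.504). The level of Nsdhl was 1.1-fold (95% interval 1.01 to 1.195, adjusted p = 0.522), that of Dhcr7 1.13-fold (95% interval 1.01 to 1.25, adjusted p = 0.529) and that of Insig1 1.09-fold (95% interval 1.003 to 1.18, adjusted p = 0.542) that of TNF libraries. The 95% interval of the fold stayed within 1.5-fold in both directions for 26 of the 28 members, Acat2 (up to 1.731-fold higher) and Fdft1 (down to 0.634-fold) being the exceptions. The genes with the firmest TNF calls were close to 1-fold, namely Mvk at 0.971-fold (95% interval 0.884 to 1.07), Fdps at 1.04-fold (0.944 to 1.14) and Npc2 at 1.022-fold (0.963 to 1.08). Mvk, Fdps and Npc2 were picked by their TNF values, which are also the denominator here. Their folds are therefore not independent of that choice. No member was called in this comparison under any of the 18 alternatives.

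**Figure D4:**
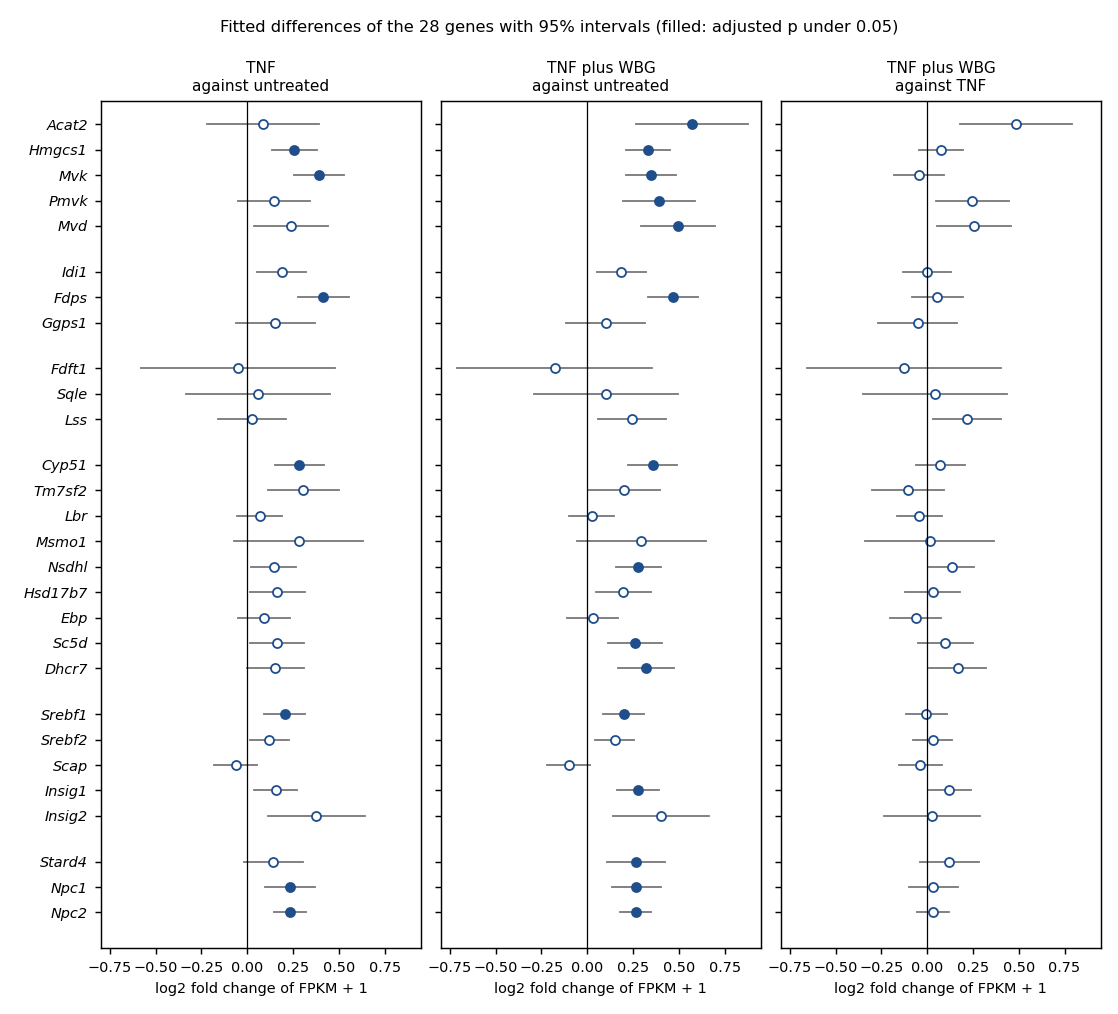
Fitted log2 fold changes of FPKM + 1 with 95% intervals for the 28 members in rows, with 1 panel per comparison; filled circles have an adjusted p under 0.05. Filled circles number 7 for TNF against untreated, 15 for TNF plus WBG against untreated and 0 for TNF plus WBG against TNF.

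Within the treated groups, single libraries were low or high for many members at once. TNF plus WBG replicate 3 was the lowest of its group for 18 of the 28 members, against 34.1% of all genes, and TNF plus WBG replicate 2 was the highest for 16. TNF replicate 2 was the lowest of its group for 17 members, against 34.8% of all genes, and TNF replicate 3 the highest for 14. The untreated libraries showed less of this, with each the lowest for 6 to 12 members. The median deviation of the members from their group mean was -0.07 on the log2 scale in TNF plus WBG replicate 3 and -0.05 in TNF replicate 2, while that of all genes was at most 0.01 in size in any library. The inferred depth was 18.85 M fragments in TNF plus WBG replicate 3 and 22.41 M in TNF replicate 2, and the part of depth in these deviations was not tested.

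**Figure D5:**
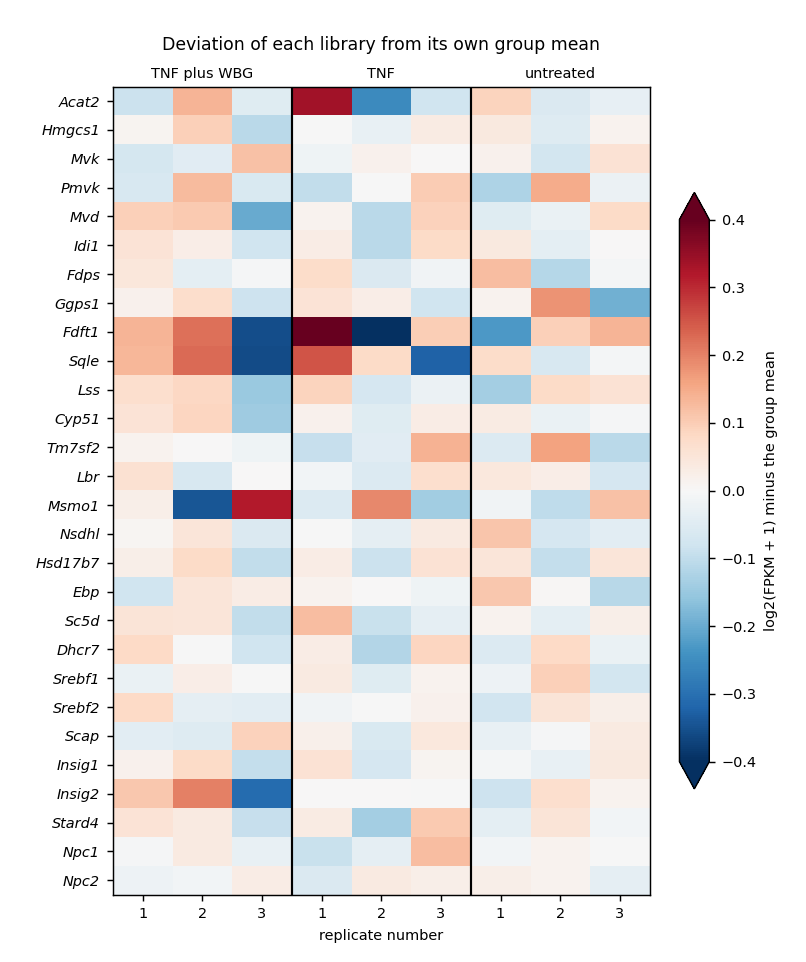
Colours give the difference between the log2(FPKM + 1) of each library and the mean of its own group, with members in rows and the libraries of TNF plus WBG, TNF and untreated from left to right. TNF plus WBG replicate 3 is blue for most members, among them Fdft1, Sqle, Insig2 and Mvd, and red for Msmo1 and Mvk.

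Of 71 further genes of the pathway in 6 lists, 61 were tested, and their median log2 fold change over all lists was -0.04 in TNF against untreated and -0.03 in TNF plus WBG against untreated. By list, the median in TNF plus WBG against untreated ran from -0.06 for isoprenoid use and for SREBP processing to 0.16 for acetyl-CoA supply, which also had a positive median (0.10) in TNF against untreated. TNF against untreated called 2 of the 61 higher and 3 lower, against 6.43% and 4.21% of all genes. TNF plus WBG against untreated called 7 higher and 2 lower, against 5.52% and 3.67% of all genes. Except for the 7 called higher, these counts were near or below the all-gene shares. TNF plus WBG against TNF called none. There, 8 were higher and none lower at an unadjusted p under 0.05 by limma, against 4.18% and 4.88% of all genes. Of the 6 acetyl-CoA supply genes, TNF plus WBG called 3 higher than untreated and 1 lower. Acss2, which makes acetyl-CoA from acetate, averaged 8.13 ± 1.38 FPKM in TNF plus WBG, 6.15 ± 0.574 FPKM in TNF and 5.23 ± 0.809 FPKM in untreated libraries (log2 0.55 ± 0.130, adjusted p = 0.0315 for TNF plus WBG against untreated). Acly, which splits citrate into acetyl-CoA, averaged 136 ± 7.04, 123 ± 2.46 and 117 ± 2.05 FPKM in the same order (log2 0.22 ± 0.042, adjusted p = 0.0114). Acat1, the mitochondrial relative of Acat2, was lower in both treated groups, at 25.98 ± 0.446 and 27.3 ± 1.58 FPKM in TNF plus WBG and TNF, against 31.4 ± 1.09 FPKM in untreated libraries (adjusted p = 0.0105 and 0.0386). Aacs, which activates acetoacetate, was called higher in TNF than in untreated libraries, with 39.98 ± 1.11 against 35.1 ± 1.43 FPKM (adjusted p = 0.0406).

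Of 10 tested genes for SREBP processing and sterol-regulated degradation, Erlin2 was called higher in both comparisons with untreated and Erlin1 lower in TNF. Of all genes, 6.43% were called higher and 4.21% lower in TNF, and 5.52% higher in TNF plus WBG, each against untreated. Against these shares, a single call in a list of 10 or 12 genes is not read as a result about the list. Erlin2 and Erlin1, partner proteins of the endoplasmic reticulum, differed in sign with TNF. Erlin2 averaged 19.5 ± 0.482 FPKM in TNF plus WBG, 19.7 ± 0.491 FPKM in TNF and 17.1 ± 0.756 FPKM in untreated libraries (adjusted p = 0.0442 and 0.0307 against untreated). Erlin1 averaged 12.5 ± 0.751 FPKM in TNF, against 15.3 ± 0.917 FPKM in untreated libraries (adjusted p = 0.021). In TNF plus WBG against TNF the largest difference of this list was that of the protease gene Mbtps2, 17.7 ± 1.25 against 16.1 ± 0.27 FPKM (adjusted p = 0.556). Among 12 tested fatty acid targets of SREBP, none was called in TNF against untreated and 1, Me1 (malic enzyme), was called higher in TNF plus WBG. Me1 averaged 36.8 ± 2.8 FPKM in TNF plus WBG, 33.1 ± 1.38 FPKM in TNF and 28.5 ± 1.57 FPKM in untreated libraries (log2 0.35 ± 0.065, adjusted p = 0.00946). Scd2, a fatty acid desaturase, had the largest difference of this list without a call in TNF against untreated (log2 -0.49, adjusted p = 0.491). It measured 347.5 FPKM in untreated replicate 1 and 107 FPKM in each of the other untreated libraries, against 109.6 to 125 FPKM in the 6 treated ones. Elovl6, an elongase, had the largest difference of the list in TNF plus WBG against TNF, 26.3 ± 0.659 against 31.96 ± 5.03 FPKM (adjusted p = 0.586).

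Against untreated, 4.21% of all genes were called lower in TNF and 3.67% in TNF plus WBG, and 5.52% were called higher in TNF plus WBG. Beside these shares, a single call in a list of 13 or 15 genes is not read as a result about the list. Of 13 tested genes for lipoprotein uptake, lysosome and sterol transfer, the lysosomal membrane gene Scarb2 was called lower in both comparisons with untreated. It averaged 66.9 ± 0.663 FPKM in TNF plus WBG, 67.7 ± 1.87 FPKM in TNF and 80.5 ± 0.659 FPKM in untreated libraries (adjusted p = 0.00108 and 0.00143), a direction opposite to that of Npc1 and Npc2. Scarb1, the receptor of high-density lipoprotein, was called higher in TNF plus WBG than in untreated libraries, with 38.4 ± 2.46 against 30.4 ± 0.976 FPKM (adjusted p = 0.0356), and averaged 30.2 ± 3.48 FPKM in TNF. Of 15 genes for isoprenoid use, Dhdds, which builds the dolichol chain, was called higher in TNF plus WBG than in untreated libraries, with 13.9 ± 0.496 against 10.1 ± 1.42 FPKM (adjusted p = 0.0425). Dhdds averaged 9.67 ± 1.29 FPKM in TNF and was not called in TNF plus WBG against TNF (adjusted p = 0.317). Fnta, a subunit of the protein farnesyltransferase, had the largest difference of that list with TNF, 32.8 ± 3.99 against 40.7 ± 1.37 FPKM in untreated libraries (adjusted p = 0.132). None of the 5 tested genes for LXR, efflux and storage was called. The largest differences were those of Mylip with TNF against untreated (11.4 ± 0.596 against 12.99 ± 0.576 FPKM, adjusted p = 0.152), Nceh1 with TNF plus WBG against untreated (14.9 ± 0.577 against 16.7 ± 0.625 FPKM, adjusted p = 0.0897) and Soat1 with TNF plus WBG against TNF (13.6 ± 0.827 against 12.3 ± 0.238 FPKM, adjusted p = 0.535). In TNF against untreated, leaving out 1 library left no acetyl-CoA supply gene called higher in 7 of 9 omissions and none lower in 8. For SREBP processing genes it left none called higher in 5 and none lower in 4. Aacs, Acat1, Erlin2 and Erlin1 thus lost their calls there. In TNF plus WBG against untreated, no SREBP processing gene was called higher in 8 omissions, which ended the call of Erlin2. No gene for lipoprotein uptake or for isoprenoid use was called higher in 6 each, which ended the calls of Scarb1 and Dhdds. From 1 to 3 acetyl-CoA supply genes were called higher in the omissions. Calls of single genes in the remaining omissions were not followed.

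Of the 11 fibroblast genes tested, TNF against untreated called 3 higher and 2 lower, against 6.43% and 4.21% of all genes. TNF plus WBG against untreated called none of them higher and 2 lower, against 5.52% and 3.67% of all genes. The macrophage list summed to 9.73 to 12.3 FPKM in TNF plus WBG, 8.68 to 10.1 FPKM in TNF and 8.98 to 9.57 FPKM in untreated libraries. The part of these marker levels in the differences of the members was not tested. Exons of 12 members share bases with another annotated gene, the authors' handling of strand and of shared reads is not given in the sources used here, and those members are the less certain for it.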

How the data were processed

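Poly-A RNA of 9 libraries was sequenced as read pairs, and the treatment labels put the libraries in 3 groups of 3. The deposited table gives 1 FPKM value per Ensembl gene and library, made by the authors with an aligner, counting program, annotation and genome build not given in the sources used here. GENCODE M21 gave symbols for 55144 of the 56289 identifiers, and all 28 members matched. No counts or counting intervals were derived; the depth was inferred from single-exon genes, of which 28.7 to 31.7% lay no more than 0.02 from a whole step (4% if evenly spaced).

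Genes with at least 1 FPKM in at least 3 of 9 libraries were kept (13026). With limma 3.58.1 in R 4.3.3, log2(FPKM + 1) was modelled by group in a single fit of the 9 libraries, with a mean-variance trend. Two-sided p-values were adjusted by Benjamini-Hochberg over the 13026 genes, and an adjusted p under 0.05 was a call. Errors beside FPKM means are SD (n = 3), those beside log2 fold changes are standard errors, and fold values are ratios of mean FPKM. The fit was run on simulated data with independent noise per gene. Its check was set on a log2 change of 1, larger than the change of any member, so it does not cover changes of their size. Alternatives were pseudocounts of 0.1 and 5, no filter, a mean of at least 5 FPKM, quantile normalization, median-ratio scaling, separate fits of the 6 libraries compared, a replicate block, no trend and omission of each library.

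Members and other lists were chosen with earlier results of these data known. Values in every library are given for members called in any comparison, for Srebf1, Srebf2, Scap, Insig1 and Insig2, and for the member with the largest change per comparison. Of each other list, up to 2 called genes per direction are named, or the 1 with the largest change. Promoter windows are from RefSeq (GRCm38.p6), and only the 250 bases before the start are printed. Analyses used python 3.11.15, pandas 2.3.3 and matplotlib 3.10.9.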

Additional observations from a re-analysis of the deposited data

How the results depend on the processing

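Under the 18 alternatives no member was called in TNF plus WBG against TNF and none was called lower in any comparison. Mvk, Fdps and Npc2 stayed called in TNF against untreated under all 18, and Hmgcs1, Mvk, Mvd, Fdps, Cyp51, Insig1 and Npc2 in TNF plus WBG against untreated. Omission of 1 library gave 3 to 8 called members for TNF against untreated (7 with all libraries) and 7 to 15 for TNF plus WBG against untreated (15), and the other alternatives gave 5 to 7 and 10 to 15. Among all genes, those called lower numbered 346 to 514 in the omissions for TNF against untreated (549). In TNF plus WBG against TNF (4 genes lower) the count was 1 to 5 in the omissions and 1 in a fit of only the 6 libraries compared. The cause of these shifts was not tested, and these fits also use fewer samples. The replicate numbers did not pair the samples: deviations correlated at -0.072 to 0.107 between libraries of the same number and at -0.096 to 0.095 otherwise. With a replicate block, 5 members were called in TNF against untreated and 12 in TNF plus WBG against untreated, and 2 genes were lower in TNF plus WBG against TNF. The block ended the calls of Srebf1 (adjusted p = 0.0612) and Npc1 (0.0703) in TNF against untreated and of Dhcr7 (0.053), Srebf1 (0.069) and Stard4 (0.101) in TNF plus WBG against untreated. No called value changed sign. The uncalled log2 fold change of Srebf1 in TNF plus WBG against TNF was 0.0033 after quantile normalization. Uncalled values that crossed 0 in an omission ranged as follows. For TNF against untreated, Acat2 ran from -0.0802 to 0.21, Fdft1 from -0.25 to 0.20, Sqle from -0.0653 to 0.22 and Lss from -0.0392 to 0.0666. For TNF plus WBG against TNF, Idi1 ran from -0.0543 to 0.0397, Fdft1 from -0.38 to 0.0758, Sqle from -0.12 to 0.22, Msmo1 from -0.14 to 0.19 and Hsd17b7 from -0.0124 to 0.0812. There Srebf1 ran from -0.0284 to 0.0135, Srebf2 from -0.0099 to 0.0514, Insig2 from -0.0756 to 0.18 and Npc1 from -0.0097 to 0.0958. For TNF plus WBG against untreated, Sqle ran from -0.0115 to 0.28, Lbr from -0.0075 to 0.0570 and Ebp from -0.0258 to 0.0832. Of the scalings, quantile normalization moved the median log2 fold change of all genes most, to -0.0146 in TNF against untreated and -0.014 in TNF plus WBG against untreated. Having 3 libraries per group limits the precision.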
